A study of Mus musculus with 6 samples.

Results

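Pluripotent and early stem cell genes are described here in retinoic acid treated embryoid bodies with and without stimulation of the hedgehog pathway. The set is a list of 34 gene symbols, and all 34 were found among the 18193 genes of an Affymetrix mouse expression array. Where a gene had several probe sets, the brightest on average was used. Embryoid bodies, which are floating aggregates of differentiating embryonic stem cells, were kept for 2 days and then treated for 3 days. The 3 RA cultures received 500 nM all-trans retinoic acid, and the 3 Ag1.3 cultures received the same dose together with 50 nM Ag1.3, an agonist of Smoothened, which carries the hedgehog signal across the membrane. All 6 cultures came from 1 mouse stem cell line with a Gli1-FLAG transgene driven by the Rosa26 promoter. The controls therefore also carried the transgene, which encodes a transcription factor of the pathway, and neither strain nor clone was named in the labels. The series describes the replicates as parallel cultures, so that equal numbers form 3 pairs.

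Pluripotency is the capacity of early embryo cells to form every tissue of the body, and embryonic stem cells keep it in culture. It is held by a small network of transcription factors around Pou5f1 (also called Oct4), Sox2 and Nanog that activate each other. The naive state, that of the early inner cell mass, adds Klf factors, Esrrb, Tfcp2l1, Prdm14 and Zfp42, and many of these genes are also active in early germ cells. Retinoic acid drives stem cells out of this state and the network is silenced as neural tissue forms.

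The promoters of 3 core members are shown because all 3 genes belong to the core or naive network. RefSeq windows on GRCm38.p6 were available for 24 of the 34 members, and the sequences below run over the 250 bases before the annotated start, on the gene's strand. Capitals mark exact matches on either strand to the octamer bound by Pou5f1 (ATTTGCAT) or its core (TTTGCAT), to the nuclear receptor motif AGGTCA and to the GC box GGGCGG. On the printed strand a GC box of the other strand reads CCGCCC. The core lies within the octamer, so every octamer also counts as a core.
Pou5f1, chr17:35505782-35506031, plus strand: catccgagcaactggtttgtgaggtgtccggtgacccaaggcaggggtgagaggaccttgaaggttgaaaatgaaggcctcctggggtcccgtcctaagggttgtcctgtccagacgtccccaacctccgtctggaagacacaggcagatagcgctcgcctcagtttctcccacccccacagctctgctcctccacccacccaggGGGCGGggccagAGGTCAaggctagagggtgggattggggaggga
Nanog, chr6:122707315-122707564, plus strand: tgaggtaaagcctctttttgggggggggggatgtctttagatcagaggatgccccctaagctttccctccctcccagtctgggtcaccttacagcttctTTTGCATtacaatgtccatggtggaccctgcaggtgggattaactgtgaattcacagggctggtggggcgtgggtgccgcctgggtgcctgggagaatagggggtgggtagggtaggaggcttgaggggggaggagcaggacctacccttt
Zfp42, chr8:43307010-43307259, minus strand: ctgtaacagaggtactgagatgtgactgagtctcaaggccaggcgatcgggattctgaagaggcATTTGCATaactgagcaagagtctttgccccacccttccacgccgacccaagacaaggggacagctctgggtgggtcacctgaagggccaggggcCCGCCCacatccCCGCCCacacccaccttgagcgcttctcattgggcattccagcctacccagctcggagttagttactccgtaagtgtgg
The Pou5f1 window held 1 GC box followed by the nuclear receptor motif, and the Zfp42 window held the full octamer and 2 GC boxes. The Nanog window held the octamer core. For Pou5f1 and Nanog, 1 of 2 windows is shown. In the full windows, which reach 50 bases past the start, the octamer core occurred in 2 of the 24 members and in 4.63% of all 32851 windows. The full octamer was found in Zfp42 alone among these members and in 1.74% of all windows. The nuclear receptor motif was found for 5 members and in 16.3% of all windows, and the GC box for 15 members and in 35.7%. A TATA box (TATAAA) was found for 4 members against 13.6% of windows. The member counts are of genes, some with more than 1 window, while the shares are of windows. Of the 31 member windows, 3 held the octamer core and 1 the full octamer. The nuclear receptor motif was in 5 of the 31, the GC box in 17 and the TATA box in 4. The letters TCAAGGTCA, an Esrrb motif that contains the nuclear receptor motif, and GGGTGTGGC, a Klf motif, matched 0 of the 24 members, against 0.423% and 1.35% of all windows. These matches describe letters and not occupied sites. The median GC content was 58.67% in the 31 member windows and 52.67% in all windows.

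Nearly all of these genes read lower with Ag1.3 in each pair, by amounts smaller than the differences between pairs. The median log2 fold change of the 34 members was -0.58, against -0.01 over all genes, and 33 of 34 values were below 0, as were 52.0% of all genes. The value was lower in all 3 pairs for 31 members, where 19.5% of all genes were so and 23.3% of the 11441 genes brighter than the median probe set, a limit that all 34 members exceeded. Of the 34, 4 fell in limma's test at an adjusted p under 0.05 over all 18193 genes, a call that 0.324% of genes met in that direction, and 0 rose, against 1.08% of genes and with 0 of 34 at an unadjusted p under 0.05 where 7.25% of genes were. A further 13 members had an adjusted p between 0.05 and 0.10, and 31 had an unadjusted p under 0.05 with a lower value, against 7.68% of genes. Values are log2(intensity + 16), and fold changes on that scale are smaller than those of the intensities, more so where intensities are low. For Prdm14, the dimmest member, the log2 fold change was -0.60 on this scale and -0.75 with a pseudocount of 1. A decrease of at least 1.5-fold was found for 15 members, for 0.813% of all genes and for 1.16% of the brighter genes. In whole aggregates a smaller number of stem-like cells and less RNA in each such cell cannot be told apart.

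The number of calls moved with the fit. With a variance trend that follows intensity, limma called 26 of the 34 lower, against 2.06% of all genes. Among the genes brighter than the median probe set it called 28, against 3.98%. With a pseudocount of 64 it called 25, against 1.95%. Quantile normalization gave 5, against 0.39%. With a pseudocount of 1 it called 0 members, and 0 of all genes in either direction, with 29 members at an unadjusted p under 0.05. Without the block for replicate number, limma called 0 of the 34, against 0.044% of genes lower, and 4 members had an unadjusted p under 0.05. Leaving out pair 1, 2 or 3 also left 0 members called in limma's test, where 5, 5 or 21 of all genes were called lower. In those fits 27, 28 or 29 members had an unadjusted p under 0.05. For these fits, the pseudocount of 1 and the fit without the block, the share of all genes at that p is not given. The log2 level of hybridization spikes was 0.19 higher with Ag1.3, and scaling to them moved the median of all genes to -0.16. The members' median was then -0.75, which is -0.59 relative to all genes, and 31 members were called lower against 7.59% of genes. Of the 256 genes called in either direction in the main fit, 77% were higher with Ag1.3. After scaling to the spikes 1380 genes were called lower and 286 higher, so that 17.2% of the calls of that fit were higher.

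Among the 14 transcription factors, 1 fell, 13 did not pass, and 13 had an unadjusted p under 0.05. Pou5f1, the POU factor without which the pluripotent state is lost, read 209, 382 and 453 on the RA arrays, listed in replicate order here and throughout, and 121, 209 and 316 on the Ag1.3 arrays. Each Ag1.3 culture was below its partner, yet the groups overlapped, since Ag1.3 replicate 3 exceeded RA replicate 1. Pou5f1 fell 1.60-fold (log2 fold change -0.68, SE 0.09, limma's adjusted p = 0.042). Zfp42, a zinc finger protein also known as Rex1 and used as a marker of naive cells, read 559.5, 863 and 1180.2 in RA and 314, 457 and 864 with Ag1.3. Its log2 fold change was -0.71 with limma's adjusted p = 0.0559, just above the threshold. Nanog, a homeodomain factor that stabilises self-renewal, read 591, 828 and 1007 in RA and 368, 461 and 775 with Ag1.3, a log2 fold change of -0.62 with limma's adjusted p = 0.0726. Both genes were highest in replicate 3 and lowest in replicate 1 of each group, as Pou5f1 was.

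**Figure D1:**
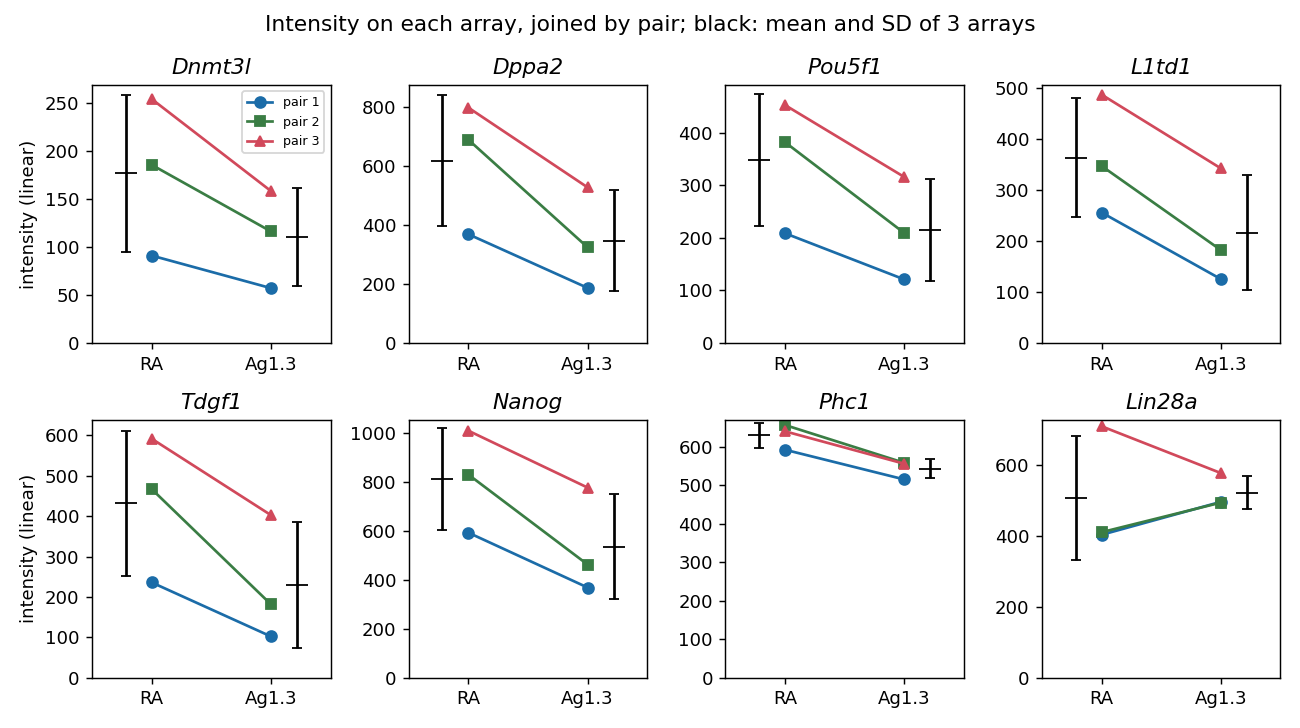
Linear intensity (vertical axis) of 8 members on the 6 arrays, with lines joining the RA and Ag1.3 culture of a pair and black marks giving the mean and SD of 3 arrays per group. Lines slope down in every pair for Dnmt3l, Dppa2, Pou5f1, L1td1, Tdgf1, Nanog and Phc1, while the groups overlap for all of these but Phc1, and Lin28a rises in pairs 1 and 2 and falls in pair 3.

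The Klf factors, zinc finger proteins that can replace each other in stem cell self-renewal, differed in the size of their values. Klf4 read 105, 128 and 219 in RA and 38.8, 65.6 and 157 with Ag1.3, a log2 fold change of -0.80 with limma's adjusted p = 0.0743. Its dimmer probe set gave -0.43. Klf2 went from 1075 ± 332 to 697 ± 351 (SD, n = 3 each), with a log2 fold change of -0.69 and limma's adjusted p = 0.0811. Klf5, which also marks the outer layer of the early embryo, had -0.23 with limma's adjusted p = 0.291. Tfcp2l1, a naive factor downstream of LIF signals, read 128, 209 and 281 in RA and 75.8, 106 and 212 with Ag1.3, a log2 fold change of -0.64. Its other probe sets gave 0.12 and 0.16 at means of 5.87 and 4.71, within the range of control probe sets without a spiked target. All 4 genes were lower in 3 of 3 pairs, and none of the 4 passed the threshold in limma's test, each with an unadjusted p under 0.05.

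Esrrb, an orphan nuclear receptor of the naive network, gave different answers by probe set. It is singled out here after its values were seen. The chosen probe set, whose name ends in x for possible cross-hybridisation, read 299, 319 and 376 in RA and 301, 313 and 313 with Ag1.3. Its log2 fold change was -0.09, with a 95% interval of -0.31 to 0.13. A second probe set of almost equal mean read 256, 366 and 543 in RA and 145, 228 and 322 with Ag1.3, a log2 fold change of -0.71 with an unadjusted p = 0.000159 in a limma fit of all probe sets. The second had the array order of Pou5f1 within each group, lowest in replicate 1 and highest in replicate 3. Nr5a2, a nuclear receptor that binds the Pou5f1 promoter, showed a like split. Its chosen probe set gave -0.51 and another -0.57, while one of similar mean gave -0.01. With the mean of all its probe sets in place of the brightest, the log2 fold change was -0.12 for Tfcp2l1, -0.081 for Klf5, -0.34 for Esrrb and -0.27 for Nr5a2. For Gdf3 and Tet1 it was -0.25 and -0.25. Such means weigh every probe set of a gene equally, also dim ones. Besides those of Tfcp2l1 given above, the dimmest of Klf5, Nr5a2 and Tet1 had means of 7.40, 12.9 and 1.66 over the 6 arrays. Over the members, 14 further probe sets were brighter than the median probe set, 13 of them with a value below 0 and 9 of these with an unadjusted p under 0.05.

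The other 5 factors of this class were also lower in 3 of 3 pairs. Prdm14, which acts in germ cell formation and restrains DNA methylation, had a log2 fold change of -0.60, and was the dimmest member with 90.7 ± 29.1 in RA. Sall4, a zinc finger partner of Pou5f1, went from 1084 ± 98.1 to 811 ± 153, with -0.42. Utf1, a chromatin-bound protein of undifferentiated cells, had -0.37, Nr0b1, an orphan receptor that restrains Pou5f1 activity, -0.34, and Zscan10 -0.30. Limma's adjusted p for these 5 and Nr5a2 ran from 0.121 to 0.261, so none passed, all with an unadjusted p under 0.05.

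**Figure D2:**
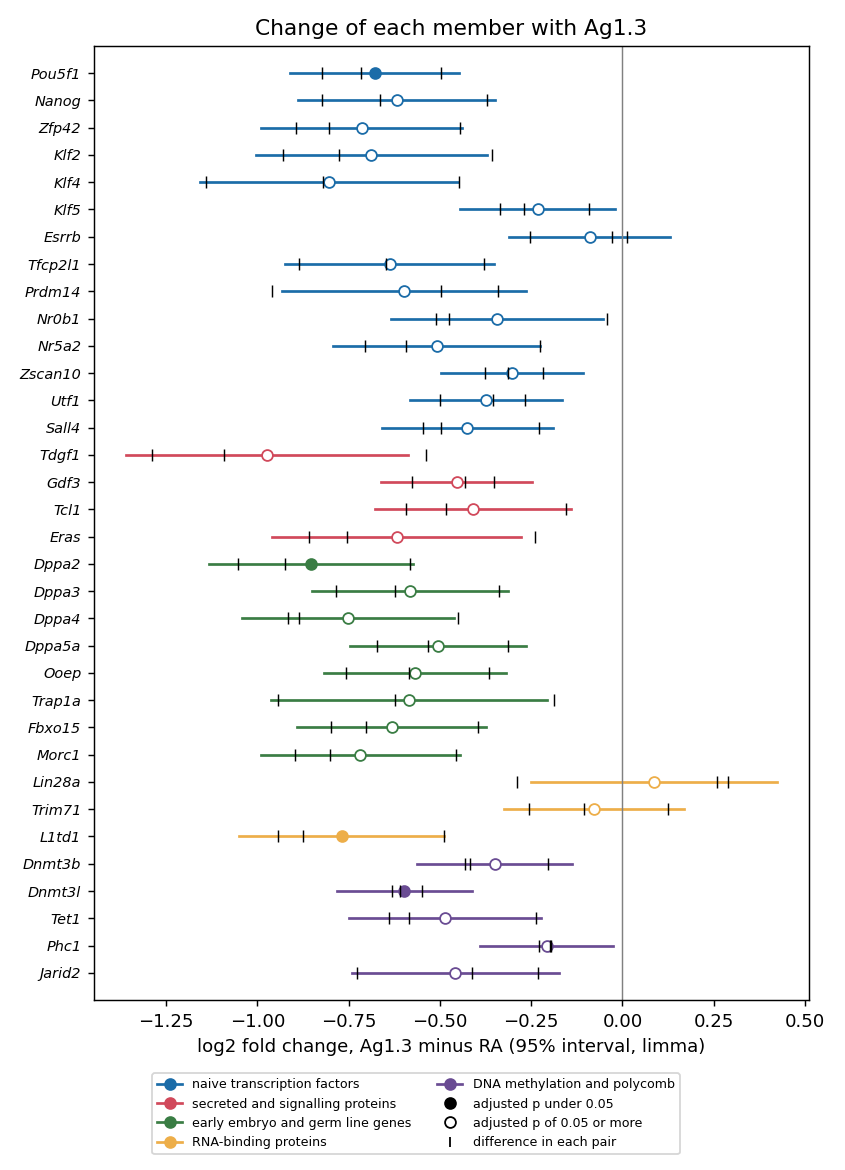
Log2 fold change of each of the 34 members, Ag1.3 minus RA (horizontal axis), with limma's unadjusted 95% interval as a bar, the 3 pair differences as ticks, and filled circles for an adjusted p under 0.05. The values run from -0.97 for Tdgf1 to 0.09 for Lin28a, and 4 circles are filled, for Pou5f1, Dppa2, L1td1 and Dnmt3l.

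Of 4 signalling proteins, 0 passed over all genes and all 4 had a lower value with an unadjusted p under 0.05 in limma's test. Tdgf1 (Cripto), the membrane co-receptor of Nodal, had the lowest value of all members. It read 236, 467 and 592 in RA and 102, 182 and 403 with Ag1.3, so that pairs 1 and 2 differed by more than 2-fold and pair 3 by less. The log2 fold change was -0.97, SE 0.15, with limma's adjusted p = 0.0593. Eras, a Ras protein of stem cells that is active without a stimulus, read 138, 197 and 319 in RA and 75.5, 101 and 267 with Ag1.3. Here Ag1.3 replicate 3 exceeded RA replicates 1 and 2. Gdf3, a secreted ligand of the TGF-beta family, read 153, 222 and 293 in RA and 116, 144 and 213 with Ag1.3, a log2 fold change of -0.45. Its other probe set, also above the median, gave -0.04. Tcl1, an activator of the Akt kinase, read 153, 215 and 189 in RA and 96.2, 149 and 169 with Ag1.3, and was 1 of 2 members whose highest RA array was replicate 2.

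Among 8 genes of the early embryo and germ line, 1 fell and all 8 were lower in 3 of 3 pairs with an unadjusted p under 0.05. Dppa2, which with its partner Dppa4 prepares chromatin for developmental genes, read 368, 689 and 798 in RA and 187, 324 and 527 with Ag1.3. It fell 1.81-fold (log2 fold change -0.85, SE 0.11, limma's adjusted p = 0.037), and its other probe set gave -0.82. Dppa4 read 426, 693 and 931 in RA and 218, 368 and 677 with Ag1.3, the same order of the 6 arrays as for Dppa2, with limma's adjusted p = 0.0562. Morc1, which silences transposons in germ cells, read 86.6, 116 and 144 in RA and 39.1, 59.6 and 100.5 with Ag1.3. Its log2 fold change of -0.72 had limma's adjusted p = 0.0545, the first value above the threshold among members.

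Fbxo15, an F-box protein whose gene is a classic Pou5f1 target, read 388, 706 and 951 in RA and 216, 427 and 719.6 with Ag1.3. Ooep, a protein of the oocyte and early embryo, read 237, 322 and 355 in RA and 134, 209.8 and 272 with Ag1.3. The log2 fold changes were -0.63 and -0.57. Dppa3 (Stella), which protects methylation in the egg, had -0.58. Dppa5a, an RNA-binding protein, went from 3564 ± 702 to 2551 ± 757, with -0.51. Trap1a, an X-linked gene first found as a tumour antigen, had the widest RA range of all members on the log2 scale and is given after its values were seen, with 393, 506 and 1120.3 in RA and 249.7, 255 and 982 with Ag1.3. Replicate 3 stood well above the other arrays in both groups, and the log2 fold change was -0.58 with limma's adjusted p = 0.165. The other 4 of these genes had limma's adjusted p between 0.0631 and 0.0889.

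The 3 RNA-binding proteins did not share a course. L1td1, a transposon-derived protein of stem cells, read 256, 347 and 487 in RA and 125, 182 and 342 with Ag1.3. It fell 1.70-fold (log2 fold change -0.77, SE 0.11, limma's adjusted p = 0.0493). Lin28a, which blocks the maturation of let-7 microRNAs, read 403, 410.4 and 709 in RA and 496, 494 and 577 with Ag1.3. It was higher in pairs 1 and 2 and lower in pair 3, so the log2 fold change of 0.09 had a 95% interval of -0.25 to 0.42. That sign turned with scaling to the spikes, with the mean of its probe sets, and without pair 1 or pair 2. Its dimmer probe set, also above the median probe set, read 165, 171 and 268 in RA and 162, 151 and 190.5 with Ag1.3. There the log2 fold change was -0.21, with an unadjusted p = 0.0988 in a limma fit of all probe sets. Trim71, a let-7 target that binds RNA and marks proteins with ubiquitin, read 407, 452 and 569 in RA and 445, 376 and 528 with Ag1.3. Its log2 fold change was -0.08 with an interval of -0.33 to 0.17, and it turned to 0.01 without pair 2. Neither Lin28a nor Trim71 differed beyond the spread between pairs. Both intervals, those of the chosen probe sets, exclude a decrease as large as the median of the members, before any adjustment. Among 7 measured genes of the let-7 pathway 0 passed in either direction, with Hmga2, a chromatin protein and let-7 target, at 0.23 and Lin28b at -0.23, and 1 had an unadjusted p under 0.05 in limma's test.

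Of 5 genes of DNA methylation and polycomb repression, 1 fell and all 5 were lower in 3 of 3 pairs. Dnmt3l, the cofactor without enzyme activity that stimulates de novo methylation, read 90.9, 185 and 254 in RA and 57.0, 116 and 158 with Ag1.3. Its pair differences of -0.55, -0.61 and -0.63 on the log2 scale were nearly equal, although RA levels spanned more than 2-fold. Dnmt3l fell 1.51-fold (log2 fold change -0.60, SE 0.07, limma's adjusted p = 0.0343), the smallest among the members. Dnmt3b, a de novo methyltransferase, read 284, 295 and 422 in RA and 209, 215 and 364 with Ag1.3, with -0.35. Tet1, which oxidises methylated cytosine, read 394, 482 and 538 in RA and 258, 304 and 454 with Ag1.3. Its log2 fold change was -0.49, and its next probe set gave -0.47. A dimmer one, with a mean of 72.3, gave 0.01, the only further probe set above the median with a value over 0.

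Phc1 and Jarid2, subunits of the polycomb complexes PRC1 and PRC2, were the 2 of 34 members whose groups did not overlap, where 5.37% of all genes, and 6.07% of the brighter ones, had separate groups with the lower values under Ag1.3. Phc1 read 592, 656 and 639.7 in RA and 515, 558 and 555 with Ag1.3. Its values varied little within a group, and its log2 fold change of -0.21 was small with limma's adjusted p = 0.274. Jarid2 read 699, 721 and 794 in RA and 521, 429 and 674 with Ag1.3, a log2 fold change of -0.46 with limma's adjusted p = 0.153. Its other probe sets gave -0.50 and -0.60. Among 18 other genes of these systems 0 passed in either direction in limma's test, with 3 lower and 1 higher at an unadjusted p under 0.05. Their median was -0.03, with Cbx7, a PRC1 subunit of stem cells, at -0.34 and Eed, a core subunit of PRC2, at -0.25. The maintenance methyltransferase Dnmt1 had -0.06 and the PRC2 enzyme Ezh2 0.03, both named after their values were seen.

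The members varied together between cultures. RA replicate 1 was the lowest RA array for all 34, and RA replicate 3 the highest for 32, against 33.6% of the brighter genes. Ag1.3 replicate 3 was the highest of its group for 33, against 44.7%. Replicate 3 was highest in both groups for 32 members, against 24.5% of the brighter genes. The median over members, relative to each gene's RA mean on the log2 scale, was -0.39, 0.05 and 0.37 for the RA arrays and -1.05, -0.57 and -0.03 for the Ag1.3 arrays. Ag1.3 replicate 3 thus read near the RA mean and above RA replicate 1 for 32 of 34 members. Within RA the range between the highest and lowest array had a median of 0.77 over members, and it exceeded the size of the change with Ag1.3 for 27 of 34. The exceptions were Nr5a2, Sall4, Ooep, Morc1, Tet1, Phc1 and Jarid2. The median pair difference was -0.64, -0.63 and -0.35 in pairs 1, 2 and 3, and the fall was largest in pair 3 for 4 members.

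**Figure D3:**
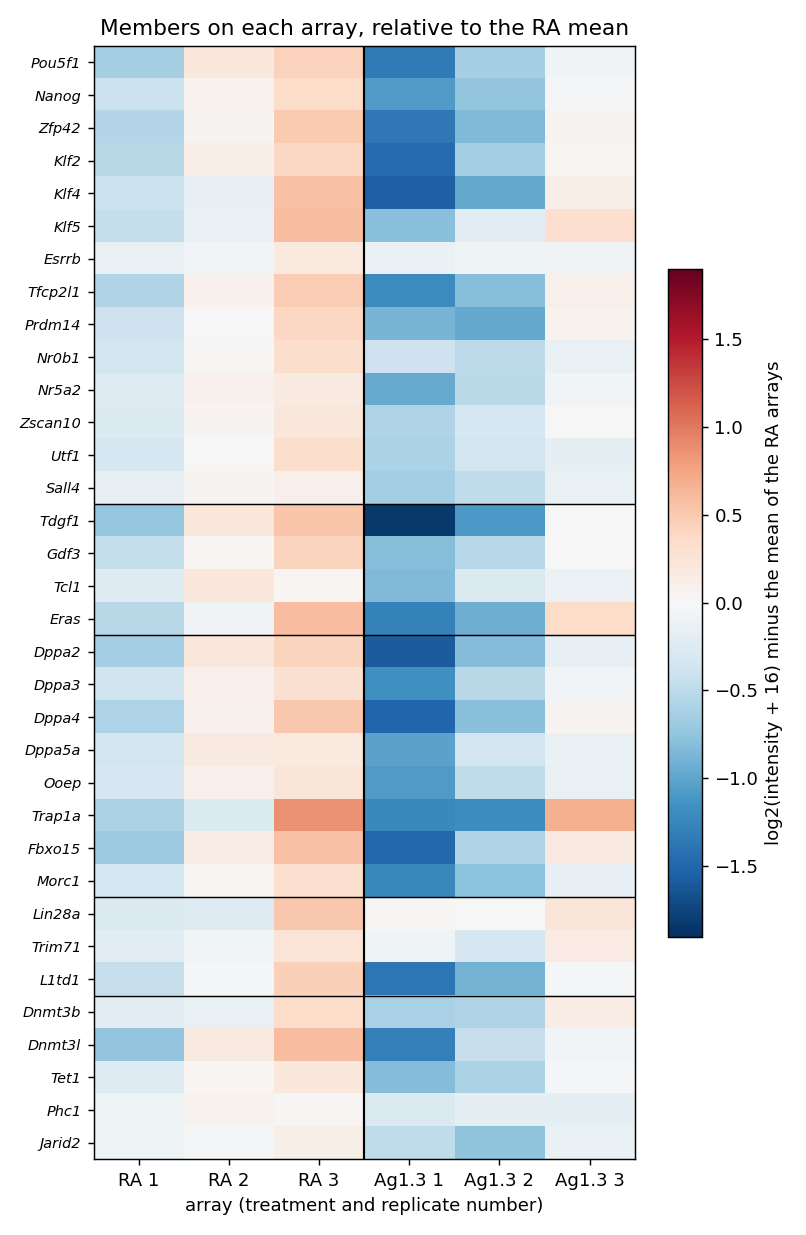
Each of the 34 members (rows, grouped by role) on each array (columns), as log2(intensity + 16) minus the gene's mean on the RA arrays. Ag1.3 replicates 1 and 2 are below that mean for 33 members each, and RA replicate 3 is above it for all 34.

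Of 30 other pluripotency-associated genes measured, 5 fell and 0 rose in limma's test over all genes, against 0.324% and 1.08%, and the median was -0.22. Lefty1, a secreted Nodal inhibitor, read 152, 249.7 and 463 in RA and 73.0, 117 and 261 with Ag1.3, with -0.90 and limma's adjusted p = 0.0142. Alpl, the alkaline phosphatase used to stain stem cell colonies, had -0.66 and Tex19.1, a germ line and stem cell protein, -0.70, with limma's adjusted p = 0.027 and 0.0325. Sox2, shared by stem cells and neural progenitors, went from 2769 ± 113 to 2586 ± 109, and its log2 fold change was -0.10 with limma's adjusted p = 0.623. Of 14 germ line genes 0 passed in limma's test, 11 were lower at an unadjusted p under 0.05, and their median was -0.55. Rhox5, an X-linked homeobox gene, read 428, 954 and 1666 in RA and 217, 468 and 1186 with Ag1.3, and Prdm1, a repressor needed for germ cell fate, had -0.80. Relative to the RA means, the germ line median was -0.36, 0.02 and 0.39 on the RA arrays and -1.17, -0.62 and 0.11 on the Ag1.3 arrays, so replicate 3 was highest in both groups here too.

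Markers of other cell types also differed between the arrays. Of 10 neuron markers 9 rose in limma's test, among them Elavl4, an RNA-binding protein of neurons, 3.24-fold and Neurod4, a neurogenic factor, 5.95-fold. Their summed intensity was 2054 to 3420.1 on RA and 7169 to 10355 on Ag1.3 arrays, and it was lowest in replicate 3 of each group, where the members were highest. The 10 neural progenitor markers, all brighter than the median probe set, summed to 9543 to 14912 on RA and 10936 to 14986 on Ag1.3 arrays. That sum was also lowest in replicate 3 of both groups. The brightest of the 10 were Vim and Sox2, at means of 4230 and 2769 in RA, and Sox2 is shared with stem cells. Limma called 1 of the 10 higher, the receptor gene Notch1 (0.66), and 0 lower. At an unadjusted p under 0.05, 4 were higher and 1 was lower, Pax6 at -0.48 with limma's adjusted p = 0.0531. Of 12 endoderm markers 2 fell, Sox17, an endoderm factor, 2.32-fold and the epithelial keratin gene Krt8 1.54-fold. Of the 12 values 8 were below 0, and their median was -0.02. Only 5 of the 12 markers were brighter than the median probe set, so that median rests largely on dim genes and says little. Among the 5, Sox17, Krt8 and Krt18 (-0.55) were lower at an unadjusted p under 0.05 in limma's test. Sox7 and Dab2, also among the 5, had -0.05 and -0.06. The 12 summed to 1011, 1141 and 2149 on RA and 693, 817 and 1686 on Ag1.3 arrays, lower with Ag1.3 in each pair. Krt18 and Krt8 were the brightest, with means of 628 and 295 in RA. Afp and Ttr of the yolk sac had means of 19.2 and 21.8 in RA, close to the 4.02 to 20.7 of control probe sets without a spiked target. The part of neurons, progenitors and endoderm in the members' values was not tested. Replicate 3 was the highest or lowest of its group in the sum of each of these 3 lists, and without pair 3 the members' median was -0.66.

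**Figure D4:**
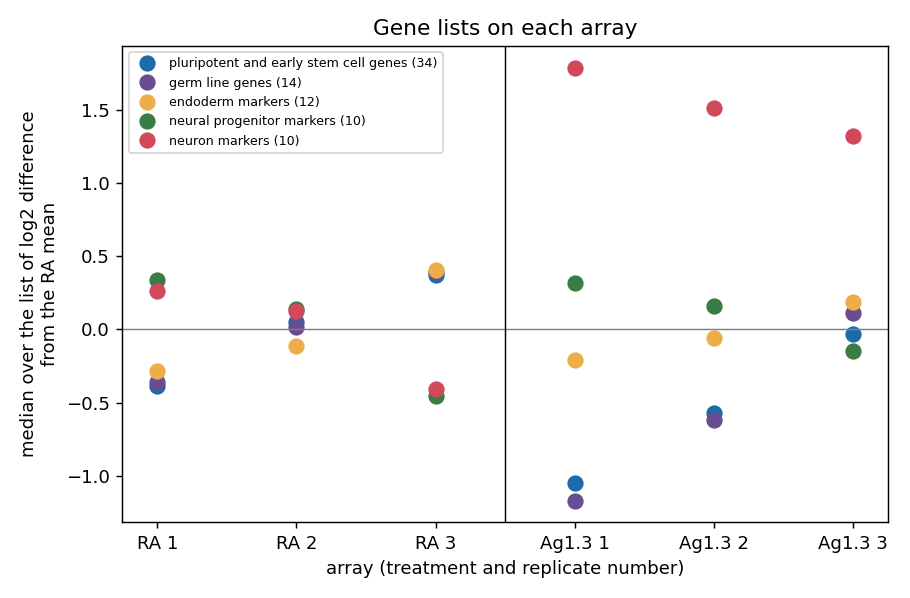
Median over each gene list of the log2 difference from the RA mean (vertical axis) on the 6 arrays, for the 34 members, 14 germ line genes, 12 endoderm, 10 neural progenitor and 10 neuron markers. Members and germ line genes are lowest in replicate 1 and highest in replicate 3 of each group, and neuron markers lie between 1.32 and 1.79 with Ag1.3.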

How the data were processed

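Total RNA of 6 cultures was measured on 1 Affymetrix Mouse Genome 430 2.0 array each. The deposited values were linear probe set intensities. The summary method, software and scaling that the authors used were not given in the labels or file headers. Array medians lay between 48.7 and 52.5. Biotin-labelled cRNA came from a 3' IVT kit, per the labels' protocols.

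Of 45101 probe sets, 64 controls, 932 with several symbols and 9160 not listed in the platform annotation were left out, and 34945 gave 18193 genes. Each gene was read by its brightest probe set, and 20 members had 1 probe set. All 34 members matched RefSeq by gene identifier. Limma 3.58.1 in R 4.3.3 (lmFit, eBayes) was run on log2(intensity + 16) with the replicate number as a block, two-sided, with Benjamini-Hochberg adjustment over all genes and a threshold of 0.05. The fit was tested on simulated data with independent noise and changes larger than that of any member. That test does not cover changes of the members' size. Intervals are limma's 95% and unadjusted, and the number of arrays limits precision. The pairing comes from the series' design text. Deviations from group means correlated at 0.54, 0.19 and 0.56 within pairs and -0.52 to 0.07 between them, across genes, which are not replicates. Replicates shared 21 to 37 identical intensities, not counting values of 1 or less, so none was a copy.

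The members and gene lists were chosen with earlier results of these data known, so no list count is independent evidence. Every member could be named. Per-array values are given for members that passed and, per role, up to 4 others with the smallest p, with exceptions stated. From each other list, up to 3 genes that passed or the 2 with the smallest p are named. The GC box, nuclear receptor and octamer core motifs were added after the promoter table was seen. Alternatives changed the pseudocount (1, 64), the filter, scaling, probe set choice, block, moderation and pairs.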

Additional observations from a re-analysis of the deposited data

How the results depend on the processing

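With 13 alternatives run, 4 members were called lower in the fit reported and 0 to 31 in the alternatives, and 0 were called higher in any of the fits. The count was 0 with a pseudocount of 1, 25 with one of 64, 28 after the filter on low values, 31 after scaling to the spikes, 26 with the variance trend and 0 with no replicate block. It was 3 to 5 with quantile normalization, the mean of probe sets, robust moderation, or the probe set with the highest mean log2, the last chosen after seeing the data. Leaving out 1 pair gave 0 each time. The filter tests fewer genes, and leaving out a pair uses fewer arrays. The cause of these and of the other shifts was not tested.

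Over all genes 59 were called lower and 197 higher. In the order pseudocount 1, pseudocount 64, filter, no replicate block and variance trend, the lower calls were 0, 355, 455, 8 and 375 and the higher calls 0, 464, 497, 79 and 513. Scaling to the spikes gave 1380 lower calls. Without 1 pair, 5 to 21 were lower and 35 to 47 higher. Of the genes in other lists 18 were called, and 0, 34, 36, 7 and 38 in the same order, 45 with spikes, and 6 to 7 without 1 pair.

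The members' median of -0.58 moved to -0.75 with spikes and lay between -0.48 and -0.66 without 1 pair. The sign of 32 members was kept in all 13 alternatives. Lin28a (0.09) turned to -0.10 with spikes, -0.065 with the mean of probe sets, -0.016 without pair 1 and -0.00052 without pair 2, and was 0.27 without pair 3. Trim71 ranged from -0.26 with spikes to 0.00997 without pair 2, and was -0.18 without pair 1. Among the 4 called members, Pou5f1, Dppa2 and Dnmt3l passed in 8 of 13 alternatives and L1td1 in 6. By its mean over 6 arrays, even the dimmest member, Prdm14 at 73.6, was above the 4.02 to 20.7 of control probe sets without a spiked target. Single values were lower, as for Prdm14 at 40.2 and 37.2 in Ag1.3 replicates 1 and 2. Its log2 fold change was -0.75 with a pseudocount of 1 and -0.37 with one of 64.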

Other observations

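Genes of neighbouring embryonic states were also read on these arrays. Of 9 genes of the primed epiblast, the stage that follows the naive state, 1 rose and 0 fell in limma's test over all genes, where 0 had a lower value at an unadjusted p under 0.05. The riser, Pou3f1, a POU factor also used by differentiating neural cells, read 62.1, 67.3 and 72.8 in RA and 234, 210.0 and 149.6 with Ag1.3, with limma's adjusted p = 0.0298. Fgf5 and Otx2, the usual markers of that state, had means of 11.2 and 6.21 in RA, in the range of control probe sets without a spiked target, and were named after their values were seen.

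Of 7 mesoderm markers measured 0 passed in limma's test, with 1 lower and 1 higher at an unadjusted p under 0.05. Kdr, a receptor of vascular precursors, had a log2 fold change of 0.57 and Tbx6, a factor of paraxial mesoderm, -0.25. Of 7 trophoblast markers 0 passed and 0 had an unadjusted p under 0.05, with Eomes at 0.38 and Elf5 at -0.39. The median of the trophoblast list was 0.05, that of the mesoderm list -0.15 and that of the primed epiblast list -0.06. Only 1 of the 7 mesoderm markers and 3 of the 7 trophoblast markers were brighter than the median probe set, as were 4 of the 9 primed epiblast genes. With so many dim genes, the few calls and the medians of these lists say little about a change.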
